A study of Rattus norvegicus with 24 samples.

Results

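The genes described here are 48 enzymes of amino acid, creatine and one-carbon metabolism, chosen as a list of gene symbols and looked up in the annotation of an Affymetrix rat array. For 45 of the 48 the annotation held at least 1 probe set, a group of short probes against 1 transcript. The other 3, Pipox, Ddo and Hgd, were not analysed here. There were 55 such probe sets, of which 53 were bright enough to be tested, and every one of the 45 genes kept at least 1. In all, 10208 of the array's 15923 probe sets were tested.

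The kidney carries much of the body's amino acid traffic. Its proximal tubule takes amino acids back from the filtrate, makes arginine from citrulline, makes the creatine precursor guanidinoacetate and serine, breaks down glutamine to excrete acid, and turns L-DOPA into dopamine. One-carbon metabolism moves single carbon units, drawn largely from serine and glycine, into methylation and nucleotide synthesis.

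The animals were male SHR-SP rats, an inbred stroke-prone strain in which hypertension arises spontaneously, and they were 11 weeks old when the diets began. The high salt and fat diet was chow with 24.5% fat together with 1% NaCl in the drinking water, and the normal diet was powdered chow with water; each was fed for 2 or 8 weeks to 6 animals, giving 4 groups and 24 whole-kidney arrays. Arrays and kidneys of animals on the high salt and fat diet are called high-diet below. All groups share the hypertensive strain and male sex, no normotensive strain was included, and fat and salt came as 1 treatment, so the diet comparison is of both at once. Signals are MAS5 intensities, and differences are log2(signal + 7.2) on the high salt and fat diet minus the same value on the normal diet, with the standard error of limma's fit to all 24 arrays. A gene was called where its p, adjusted by Benjamini-Hochberg over all 10208 probe sets, was below 0.05, and "rose" and "fell" are used of called genes. Where 3 signals are given for a group, they are the lowest, the median and the highest of its 6 arrays.

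The arrays had been scaled by the authors to trimmed means of 150.034 to 150.042, with medians of 68.7 to 78.7, and replicate arrays of a group correlated at 0.950 to 0.981. Normal-diet arrays 1 and 2 at 8 weeks stood apart at the dim end, with 1st percentiles of 2.4 and 3.0 against 0.7 to 1.2 on the others. All 12 proximal tubule markers on the list were measured, and none was at 0. Their summed signal was 26905 to 34518 in high-diet kidneys, against 36906 to 39381 in normal-diet kidneys at 2 weeks, without overlap (ratio of means 0.819, two-sided exact permutation p = 0.0022, adjusted p = 0.0063). At 8 weeks it was 27788 to 33219.9 in high-diet kidneys, against 31046 to 39901 in normal-diet kidneys (ratio 0.880, exact permutation p = 0.013, adjusted p = 0.026). Of the 12 markers, 7 fell at 2 weeks, 4 fell at 8 weeks and 0 rose. In whole kidney, fewer cells of a type and less RNA per cell cannot be told apart. At 2 weeks the ratio of the 3′ to the 5′ GAPDH control, which rises with RNA breakdown, was 1.22 ± 0.09 in high-diet kidneys and 1.09 ± 0.07 in normal-diet kidneys (SD, n = 6 each, exact permutation p = 0.015, adjusted p = 0.040). A liver marker list summed to 107 to 183 in high-diet kidneys, against 201 to 278 in normal-diet kidneys at 2 weeks, and its Apoa1, Apoa2, Fgb, Serpina1 and Cps1 were below the filter on low signals. The part of these measures in the results below was not tested, other than by the covariate fits given with them.

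On the high salt and fat diet, enzymes of arginine, creatine, serine, glutamine, tryptophan, tyrosine, lysine and valine metabolism fell at 2 weeks, and 0 of the 45 genes rose at either time. At 2 weeks 14 of 45 genes fell (31.1%), where 8.74% of all probe sets were called, 4.19% lower and 4.55% higher. At 8 weeks 10 of 45 fell (22.2%), against 9.14% of all probe sets, 3.51% lower and 5.63% higher. Members were counted by 1 probe set per gene, the brightest, and the background by every tested probe set, not matched for brightness. With the filter at the 60th percentile, 14 members were called at 2 weeks and 13 at 8 weeks. Of all 6953 probe sets then tested, 390 were higher and 378 lower at 2 weeks, and 484 and 373 at 8 weeks. The median difference over the 45 was -0.17 at 2 weeks and -0.21 at 8 weeks, against 0.02 and -0.00 over all probe sets tested. An unadjusted limma p below 0.05 was found for 22 of the 45 at 2 weeks (48.9%, against 22.8% of all probe sets) and for 23 at 8 weeks (51.1%, against 23.7%). The estimate was below 0 for 34 of the 45 at 2 weeks and for 37 at 8 weeks, against 4761 and 5130 of all 10208 probe sets. The 2 comparisons share no arrays, but both use the spread estimated from all 24, so they are not independent. In both, 7 genes fell: Ass1, Phgdh, Ddc, Kmo, Acmsd, Aass and Gcdh. These are 50% of the members called at 2 weeks and 70% of those called at 8 weeks. The same shares over all called probe sets were not computed, so whether this overlap is more than usual was not tested. Without 8-week normal-diet arrays 1 and 2, Aass and Acmsd were not called at 8 weeks. With only the 8-week groups fitted, Aass, Acmsd and Gcdh were not called (adjusted p = 0.061, 0.053 and 0.070). The 6 arrays of each diet did not overlap for 8 genes at 2 weeks (17.8%, all dimmer on high-diet arrays), against 4.85% of all probe sets, 2.17% dimmer and 2.67% brighter. They did not overlap for 2 genes, Ddc and Kmo, at 8 weeks (4.44%, both dimmer). That share is near the 3.35% of all probe sets that did not overlap at 8 weeks, 1.14% dimmer and 2.21% brighter.

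Beside these counts, other marker lists differed at 8 weeks between the diets without overlap, each with an exact permutation p of 0.0022 (adjusted p = 0.0063). The summed signal of 6 tubular injury markers was 4887 to 11619 in high-diet kidneys, against 1939 to 2879.7 in normal-diet kidneys (ratio of means 3.58). Smooth muscle and fibroblast markers, 6 in number, summed to 1255 to 2159 in high-diet kidneys, against 801 to 1004 in normal-diet kidneys (ratio 1.90). The 8 macrophage and leukocyte markers summed to 2849 to 3778 in high-diet kidneys, against 2256 to 2838 in normal-diet kidneys (ratio 1.27), with Ptprc and Cd3e below the filter. Of the 6 tested, 3 rose and 1 had an estimate below 0. The 6 collecting duct markers summed to 2164 to 3096 in high-diet kidneys, against 1464 to 2024 in normal-diet kidneys (ratio 1.45). Singly, 4 of them rose and 1 had an estimate below 0. At 2 weeks the injury markers summed to 2833 to 3478 in high-diet kidneys, against 1812 to 2436 in normal-diet kidneys (ratio 1.47, exact permutation p = 0.0022, adjusted p = 0.0063). Singly, 2 of the 6 injury markers rose at 2 weeks and 2 had an estimate below 0. The macrophage and leukocyte markers went the other way at 2 weeks, with 2259 to 2685 in high-diet kidneys, against 2587 to 2952 in normal-diet kidneys (ratio 0.886, exact permutation p = 0.0087, adjusted p = 0.019). Of the 6 tested, 0 were called at 2 weeks, and all 6 estimates were below 0. None of these markers is a member, and their part in the members' results was not tested.

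**Figure D1:**
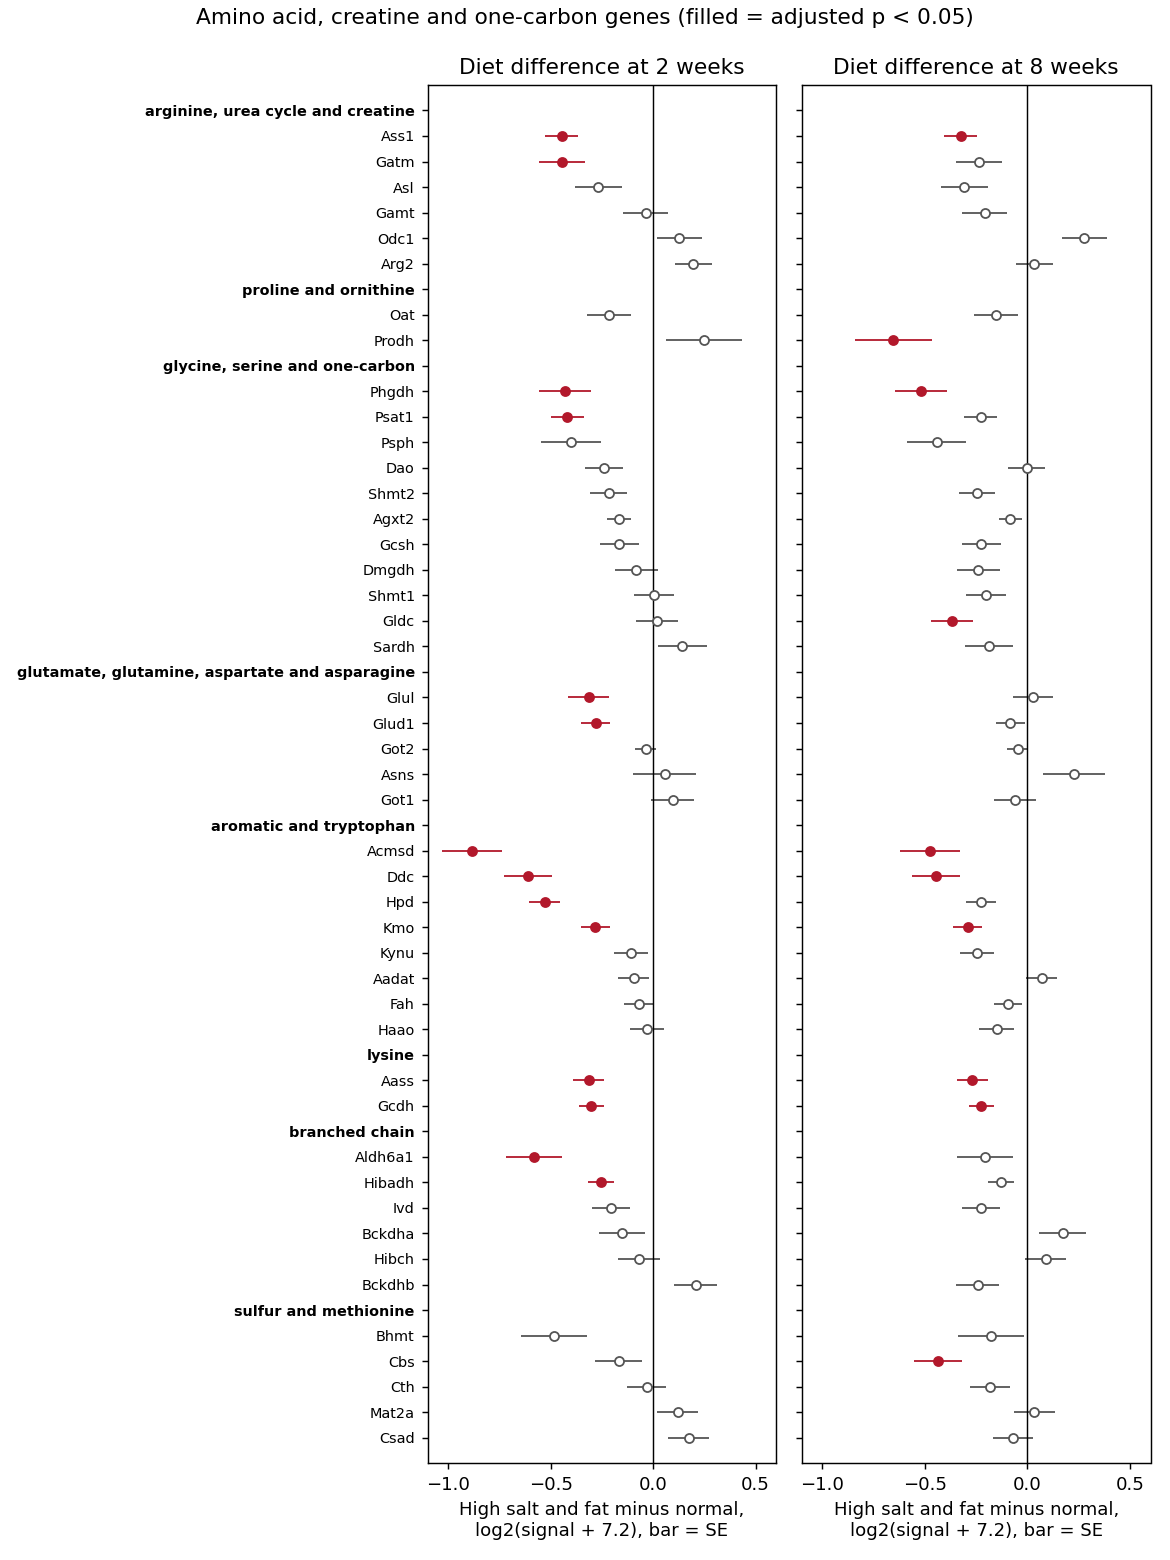
Difference in log2(signal + 7.2), high salt and fat diet minus normal diet, for the 45 genes grouped by pathway, at 2 weeks (left) and 8 weeks (right). Points are limma estimates, bars their standard errors, and filled points passed an adjusted p below 0.05. All 14 filled points at 2 weeks and all 10 at 8 weeks lie left of 0.

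In arginine and creatine synthesis, the gene that fell at both times was Ass1, argininosuccinate synthetase, which joins citrulline to aspartate on the way to arginine. At 2 weeks its signals were 2555, 3076 and 3615 in high-diet kidneys, against 3964, 4119 and 4475 in normal-diet kidneys. Every high-diet array was dimmer than every normal-diet array, and the difference was -0.44 ± 0.08 (adjusted p = 0.00085). At 8 weeks Ass1 signals were 2717, 2930.4 and 3538 in high-diet kidneys, against 3210.2, 3884 and 4246 in normal-diet kidneys, and the ranges met. The difference at 8 weeks was -0.33 ± 0.08 (adjusted p = 0.011). Asl, argininosuccinate lyase, which releases arginine in the following step, had estimates of -0.27 ± 0.11 (adjusted p = 0.16) at 2 weeks and -0.31 ± 0.11 (adjusted p = 0.093) at 8 weeks, just outside the threshold at the later time. Its other probe set gave -0.36 (adjusted p = 0.059) at 2 weeks and -0.34 (adjusted p = 0.072) at 8 weeks.

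Gatm, glycine amidinotransferase, which makes guanidinoacetate for creatine, fell at 2 weeks. Its signals were 951, 1351 and 1845 in high-diet kidneys, against 1632, 1788 and 1921 in normal-diet kidneys. The high-diet arrays were widely spread and 1 of them lay among the normal-diet ones. The difference was -0.44 ± 0.11 (adjusted p = 0.012). At 8 weeks the Gatm difference was -0.24 ± 0.11 (adjusted p = 0.19), which was not called. Gamt, which methylates guanidinoacetate to creatine, gave -0.04 ± 0.11 (adjusted p = 0.88) at 2 weeks and -0.21 ± 0.11 (adjusted p = 0.25) at 8 weeks. Odc1, ornithine decarboxylase, the entry to polyamine synthesis, lay above 0 at both times, with 0.13 ± 0.11 (adjusted p = 0.53) and 0.28 ± 0.11 (adjusted p = 0.12), and was not called. Arg2, the mitochondrial arginase, gave 0.20 ± 0.09 (adjusted p = 0.19) and 0.03 ± 0.09 (adjusted p = 0.87).

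A further list held 116 genes of the same pathways, of which 68 were tested. Among these 4 rose and 11 fell at 2 weeks, and 2 rose and 15 fell at 8 weeks, with median differences of -0.14 and -0.17. Called in either direction were 22.1% at 2 weeks and 25% at 8 weeks, against 8.74% and 9.14% of all probe sets. Both genes that rose at 8 weeks were creatine kinases, which pass phosphate between ATP and creatine. Ckb, the cytosolic brain-type form, had signals of 152, 198 and 327 in high-diet kidneys, against 89.3, 106 and 126 in normal-diet kidneys at 2 weeks. The groups did not overlap, and Ckb was higher by 0.92 ± 0.15 (adjusted p = 0.00035), a call lost with the fat index, described below, as a covariate (0.66, adjusted p = 0.058). At 8 weeks Ckb signals were 150.0, 180.2 and 209.8 in high-diet kidneys, against 88.6, 135 and 191 in normal-diet kidneys. That difference of 0.48 ± 0.15 (adjusted p = 0.047) was kept in only 6 of the 24 fits that left out 1 array, those without 2-week normal-diet array 2 or 3, 2-week high-diet array 3, 5 or 6, or 8-week normal-diet array 6. Where it was lost it was 0.38 to 0.53, and it was 0.27 (adjusted p = 0.34) without 8-week normal-diet arrays 1 and 2. It was also lost in 7 other settings, among them quantile normalization (0.48, adjusted p = 0.052) and the spike-in level as a covariate (0.45, adjusted p = 0.16).

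Ckmt1, the mitochondrial creatine kinase of many non-muscle tissues, had signals of 252, 305 and 369 in high-diet kidneys, against 188, 211 and 231 in normal-diet kidneys at 2 weeks. Again no arrays of the 2 diets overlapped, and the difference was 0.52 ± 0.09 (adjusted p = 0.00056). At 8 weeks it was 0.31 ± 0.09 (adjusted p = 0.031), lost without 8-week normal-diet array 1, 2, 4 or 5 or high-diet array 1, 2 or 5 (0.27 to 0.31). The 8-week Ckmt1 call was also lost with median centring, array weights, the spike-in level as a covariate, or 8-week normal-diet arrays 1 and 2 left out (0.26 to 0.31). The muscle creatine kinase Ckm, a dim probe set of the same list, had an estimate of -0.55 ± 0.20 (adjusted p = 0.083) at 2 weeks and -0.21 ± 0.20 (adjusted p = 0.57) at 8 weeks; it was not called and is named after its values were seen. Along with Ckb and Ckmt1, Amd1, which supplies the aminopropyl donor of polyamines, rose at 2 weeks by 0.45 ± 0.11 (adjusted p = 0.0098). Azin1, an inhibitor of the antizyme that removes ornithine decarboxylase, rose by 0.37 ± 0.10 (adjusted p = 0.019), lost without normal-diet array 2 or 3 (0.33 and 0.34). Neither Amd1 nor Azin1 passed with any 1 of the covariates described below. Amd1 was 0.33 with the GAPDH ratio, 0.42 with the spike-in level and 0.37 with the fat index (adjusted p = 0.16, 0.074 and 0.18). Azin1 was 0.34, 0.39 and 0.26 with the same covariates (adjusted p = 0.12, 0.070 and 0.32). Amd1 and Azin1 are named as the remaining genes of the 4 that rose, after their values were seen. A collecting duct marker list also had a summed signal of 2504 to 2767 in high-diet kidneys, against 1245 to 1722 in normal-diet kidneys at 2 weeks. Of its 6 markers, 5 rose and 1 fell at 2 weeks. The part of this list in the rises above was not tested.

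**Figure D2:**
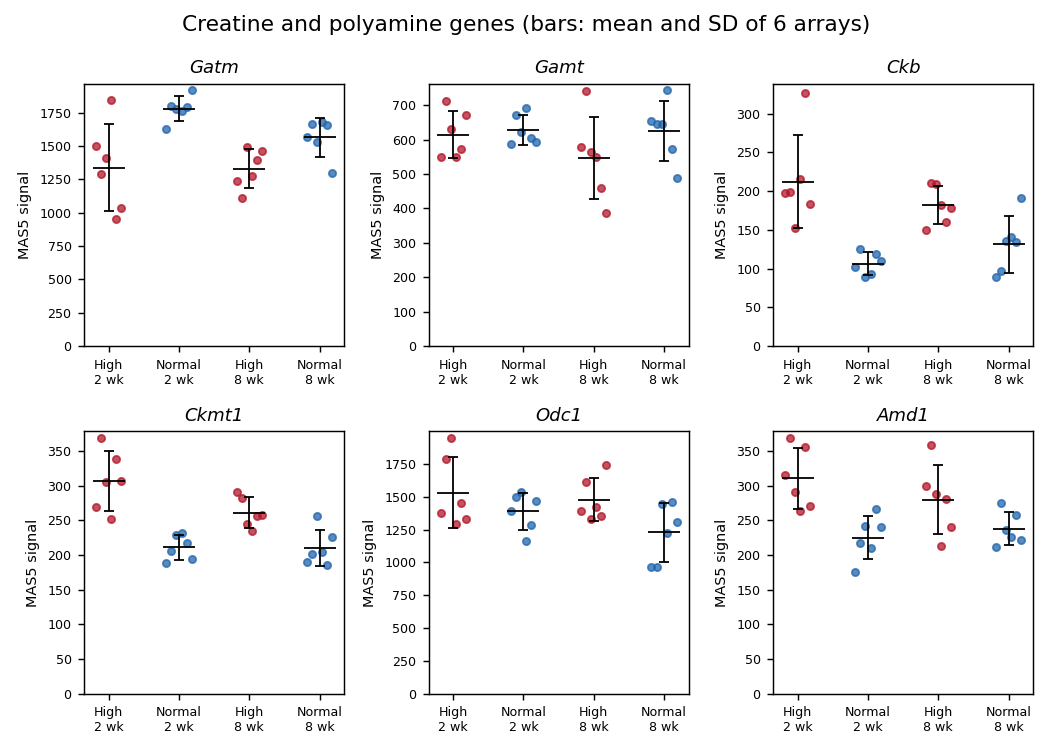
MAS5 signals of Gatm, Gamt, Ckb, Ckmt1, Odc1 and Amd1 by diet and time on linear axes from 0. Each point is 1 array, and the bars are the mean and SD of 6 arrays. At 2 weeks the lowest high-diet array of Ckb (152) and of Ckmt1 (252) lies above the highest normal-diet array (126 and 231).

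Ddah1, which degrades the nitric oxide synthase inhibitor dimethylarginine, fell at 2 weeks by 0.35 ± 0.06 (adjusted p = 0.00081), and at 8 weeks its estimate was -0.12 ± 0.06 (adjusted p = 0.25). Among 10 tested amino acid transporters, 3 fell at 2 weeks, 2 fell at 8 weeks and 0 rose (30% and 20% called, against 8.74% and 9.14% of all probe sets). Slc7a7, the basolateral exporter of cationic amino acids, gave -0.61 ± 0.15 (adjusted p = 0.012) at 2 weeks and -0.58 ± 0.15 (adjusted p = 0.016) at 8 weeks. The later call was lost without high-diet array 1 (-0.48). Slc7a8, a neutral amino acid exchanger, gave -0.62 ± 0.17 (adjusted p = 0.019) at 2 weeks, lost without high-diet array 2 (-0.56). With the GAPDH ratio, the spike-in level or the fat index as a covariate, neither transporter passed at 2 weeks. Slc7a7 was then -0.44, -0.60 and -0.65 (adjusted p = 0.18, 0.067 and 0.087), and -0.59 at 8 weeks with the spike-in level (adjusted p = 0.054). Slc7a8 was -0.64, -0.47 and -0.69 at 2 weeks (adjusted p = 0.077, 0.19 and 0.097). Both transporters were picked for mention after their values were seen.

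Proline and ornithine catabolism was represented by Prodh and Oat. Prodh, proline dehydrogenase, begins proline breakdown in mitochondria. At 2 weeks its signals were 115, 187 and 276 in high-diet kidneys, against 98.8, 169 and 219 in normal-diet kidneys, fully overlapping, and the difference was 0.25 ± 0.19 (adjusted p = 0.46). At 8 weeks they were 85.5, 132 and 156 in high-diet kidneys, against 153, 207 and 256 in normal-diet kidneys. All but 1 of the high-diet arrays at 8 weeks lay below the dimmest normal-diet array, and Prodh fell, with a difference of -0.65 ± 0.19 (adjusted p = 0.025). The change of the diet difference between the times, 8 weeks minus 2 weeks, was -0.90 ± 0.26 (adjusted p = 0.15). The 8-week call was lost without normal-diet array 1 or 6 or high-diet array 1, 3 or 4 (-0.64 to -0.55). Oat, ornithine aminotransferase, gave -0.22 ± 0.11 (adjusted p = 0.23) at 2 weeks and -0.15 ± 0.11 (adjusted p = 0.42) at 8 weeks.

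Of 11 measured genes of glycine, serine and one-carbon metabolism, 2 fell at 2 weeks and 2 at 8 weeks (18.2% each, against 8.74% and 9.14% of all probe sets called). The serine synthesis enzymes Phgdh, Psat1 and Psph, which act in that order, all had estimates below 0 at both times. Phgdh, the entry enzyme, had signals of 228, 284 and 311 in high-diet kidneys, against 313, 362 and 492 in normal-diet kidneys at 2 weeks. The groups were narrowly separated, and the difference was -0.43 ± 0.13 (adjusted p = 0.032). That call was lost without normal-diet array 1, 3 or 6 or high-diet array 2 or 3 (-0.44 to -0.36). At 8 weeks Phgdh signals were 209, 271 and 345 in high-diet kidneys, against 290.2, 384 and 503 in normal-diet kidneys, with overlapping ranges and a difference of -0.52 ± 0.13 (adjusted p = 0.0097).

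Psat1, the transaminase of the pathway, had signals of 909.8, 1057 and 1322 in high-diet kidneys, against 1371, 1398 and 1535 in normal-diet kidneys at 2 weeks. The groups did not overlap, and the difference was -0.42 ± 0.08 (adjusted p = 0.0013). Its 8-week estimate, -0.23 ± 0.08 (adjusted p = 0.072), lay just outside the threshold. Psph, the phosphatase that yields serine, was also just outside at both times, with -0.40 ± 0.15 (adjusted p = 0.085) and -0.44 ± 0.15 (adjusted p = 0.052).

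Gldc, the decarboxylase of the glycine cleavage system, had 8-week signals of 111, 132 and 163 in high-diet kidneys, against 152, 165 and 234 in normal-diet kidneys. The ranges overlapped, and the difference was -0.37 ± 0.10 (adjusted p = 0.022). At 2 weeks it was 0.02 ± 0.10 (adjusted p = 0.93). The 8-week call was lost without normal-diet array 1 or high-diet array 1 or 5 (-0.36 to -0.29). Gcsh, the carrier protein of the same system, gave -0.16 ± 0.10 (adjusted p = 0.31) and -0.22 ± 0.10 (adjusted p = 0.14). Shmt2, the mitochondrial enzyme that interconverts serine and glycine, gave -0.22 ± 0.09 (adjusted p = 0.13) and -0.25 ± 0.09 (adjusted p = 0.082), and its cytosolic partner Shmt1 gave 0.01 ± 0.10 (adjusted p = 0.98) and -0.20 ± 0.10 (adjusted p = 0.2). The other 4 genes of the group were not called at either time. Dao, which oxidises D-amino acids, was at -0.24 at 2 weeks and -0.00 at 8 weeks. Agxt2, which transaminates alanine with glyoxylate and also acts on dimethylarginines, was at -0.17 and -0.08, just outside the threshold at 2 weeks (adjusted p = 0.068). Dmgdh and Sardh, which release one-carbon units from dimethylglycine and sarcosine, were at -0.08 and 0.14 at 2 weeks and at -0.24 and -0.19 at 8 weeks.

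Glud1 and Glul fell at 2 weeks, and the other 3 genes of the glutamate group were not called. Glud1, glutamate dehydrogenase, frees ammonium from glutamate. Its 2-week signals were 2012, 2281 and 2468 in high-diet kidneys, against 2373, 2765 and 2985 in normal-diet kidneys, and the difference was -0.28 ± 0.07 (adjusted p = 0.012), though its other probe set gave -0.04 (adjusted p = 0.77). With quantile normalization the Glud1 difference was -0.14 (adjusted p = 0.17). The Glud1 call was also lost with the mean of its probe sets (-0.16, adjusted p = 0.094) and with each covariate described below. Glul, glutamine synthetase, had signals of 2753, 3099 and 4146 in high-diet kidneys, against 3331, 4048 and 4947 in normal-diet kidneys, and a difference of -0.31 ± 0.10 (adjusted p = 0.044). Its other 2 probe sets gave -0.30 (adjusted p = 0.044) and -0.50 (adjusted p = 0.0013). The call on the brightest Glul probe set was lost under quantile normalization (-0.10, adjusted p = 0.51), and without normal-diet array 1, 2, 3 or 6 or high-diet array 1, 2, 3, 4 or 5 (-0.33 to -0.25). Of 16 other settings, quantile normalization included, 8 lost the Glul call. The rest were median centring, no filter, empirical Bayes without a trend, only the groups compared, and each covariate described below (adjusted p = 0.062 to 0.41). At 8 weeks Glud1 and Glul gave -0.08 ± 0.07 (adjusted p = 0.51) and 0.03 ± 0.10 (adjusted p = 0.9). Got1 and Got2, the cytosolic and mitochondrial aspartate aminotransferases, lay between -0.06 and 0.10 at both times. Asns, asparagine synthetase, gave 0.06 ± 0.15 (adjusted p = 0.87) and 0.23 ± 0.15 (adjusted p = 0.39).

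Tryptophan and tyrosine metabolism held the 2 largest differences among the 45 at 2 weeks, those of Acmsd and Ddc. Acmsd turns the kynurenine pathway away from quinolinate and so from NAD synthesis. Its 2-week signals were 327, 574 and 607 in high-diet kidneys, against 866, 931 and 1177 in normal-diet kidneys. The groups were far apart, and the difference was -0.88 ± 0.15 (adjusted p = 0.00034). At 8 weeks Acmsd signals were 443, 692 and 889.5 in high-diet kidneys, against 787, 848 and 1164 in normal-diet kidneys, overlapping, with a difference of -0.48 ± 0.15 (adjusted p = 0.038). The later call was lost without normal-diet array 2, 5 or 6 or high-diet array 1, 2 or 5 (-0.49 to -0.36). It was also lost in 5 other settings (adjusted p = 0.0502 to 0.0944). These were no filter, empirical Bayes without a trend, only the groups compared, normal-diet arrays 1 and 2 left out, and the spike-in level as a covariate.

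Kmo, kynurenine 3-monooxygenase, stands upstream of Acmsd. Its signals at 2 weeks were 417, 454 and 528 in high-diet kidneys, against 507, 583 and 599.6 in normal-diet kidneys, with overlap, and the difference was -0.28 ± 0.07 (adjusted p = 0.014). At 8 weeks they were 396, 422 and 477 in high-diet kidneys, against 479, 521 and 603 in normal-diet kidneys, without overlap, and the difference was -0.29 ± 0.07 (adjusted p = 0.011). Kynu and Haao, the enzymes between Kmo and Acmsd, gave -0.11 ± 0.08 (adjusted p = 0.47) and -0.03 ± 0.09 (adjusted p = 0.88) at 2 weeks. At 8 weeks Kynu was just outside the threshold at -0.25 ± 0.08 (adjusted p = 0.055), and Haao gave -0.15 ± 0.09 (adjusted p = 0.3). Aadat, which transaminates kynurenine and aminoadipate, gave -0.10 ± 0.07 (adjusted p = 0.48) and 0.07 ± 0.07 (adjusted p = 0.63).

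Kmo is also 1 of 2 members whose promoter holds the letters CAAAGTCCA, a site form bound by HNF4 factors. Hnf4a, a proximal tubule member of that family and no member of the set, was -0.74 ± 0.13 (adjusted p = 0.00056) at 2 weeks and -0.22 ± 0.13 (adjusted p = 0.31) at 8 weeks. It is also 1 of the 12 proximal tubule markers above, with the lowest 2-week estimate among them. A link between Hnf4a and the members was not tested. The letters, searched on both strands, occur in 0.375% of 27457 rat promoters, taken as 250 bases before to 50 after the start of each gene in RefSeq (build GRCr8). Of the 45 members, 40 had a promoter there. Among them were 6 of the genes that fell at both times, of which 1, Kmo, held the letters. The other match, Agxt2, was not called at either time. Both windows are shown because they place the match close upstream of the start; capitals mark the matched letters, which lie on the given strand in Agxt2 (first base at -48) and on the other strand in Kmo (first base at -74). Kmo lies at chr13:90089271-90089570 and Agxt2 at chr2:61063166-61063465, both on the + strand.
Kmo: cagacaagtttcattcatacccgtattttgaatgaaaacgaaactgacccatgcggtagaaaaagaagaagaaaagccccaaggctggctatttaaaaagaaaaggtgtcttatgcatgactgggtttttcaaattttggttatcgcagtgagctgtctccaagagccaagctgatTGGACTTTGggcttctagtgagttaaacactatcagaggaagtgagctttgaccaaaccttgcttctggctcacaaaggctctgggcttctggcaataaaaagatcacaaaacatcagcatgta
Agxt2: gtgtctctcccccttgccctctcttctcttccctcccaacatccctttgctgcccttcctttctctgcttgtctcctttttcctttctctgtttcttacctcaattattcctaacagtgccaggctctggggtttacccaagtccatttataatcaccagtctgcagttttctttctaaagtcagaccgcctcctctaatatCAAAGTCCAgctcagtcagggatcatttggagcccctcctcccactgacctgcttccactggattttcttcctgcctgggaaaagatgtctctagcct
A match is a description of the letters and not a measured site. The letters TATAAA were in 6 of the 40 windows and in 14.3% of all promoters, and CCAAT was in 22 of the 40 and in 37.7% of all promoters.

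Ddc, aromatic L-amino acid decarboxylase, makes dopamine in the proximal tubule, where dopamine promotes sodium excretion. At 2 weeks its signals were 262, 355 and 413 in high-diet kidneys, against 474, 523 and 607 in normal-diet kidneys. At 8 weeks they were 250.2, 394 and 449.7 in high-diet kidneys, against 455, 477 and 598 in normal-diet kidneys. The diets did not overlap at either time. Ddc fell with differences of -0.61 ± 0.12 (adjusted p = 0.0013) at 2 weeks and -0.45 ± 0.12 (adjusted p = 0.016) at 8 weeks. The 8-week call was lost without high-diet array 1 (-0.34), and with the mean of both Ddc probe sets (-0.35, adjusted p = 0.11), where the dimmer one alone gave -0.33 (adjusted p = 0.44) and -0.25 (adjusted p = 0.58) at 2 and 8 weeks.

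Hpd, which oxidises hydroxyphenylpyruvate in tyrosine breakdown, had 2-week signals of 1583, 1740.5 and 1833 in high-diet kidneys, against 2265, 2517 and 2857 in normal-diet kidneys. The groups did not overlap, and the difference was -0.53 ± 0.07 (adjusted p = 4.7e-05). At 8 weeks Hpd was just outside the threshold, at -0.23 ± 0.07 (adjusted p = 0.055). Fah, which completes tyrosine breakdown, gave -0.07 ± 0.07 (adjusted p = 0.59) and -0.09 ± 0.07 (adjusted p = 0.44).

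**Figure D3:**
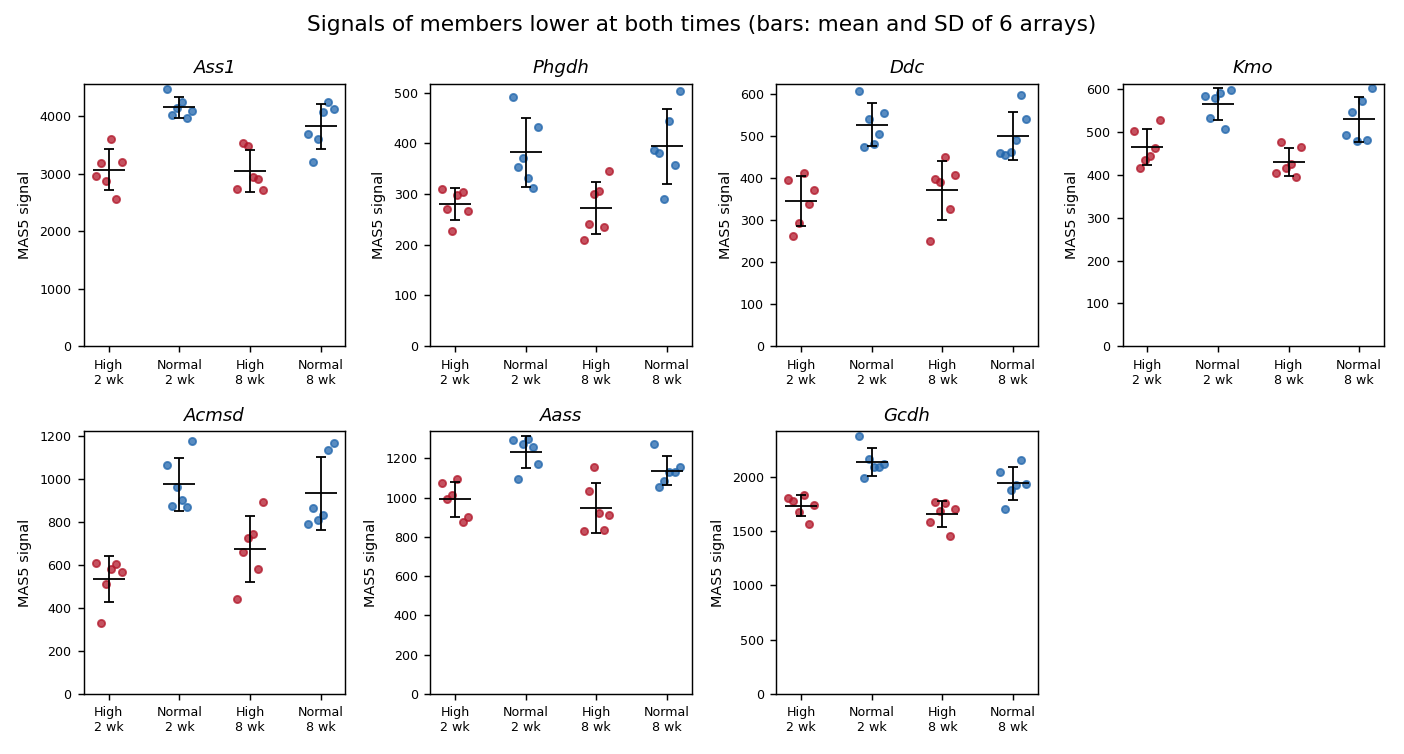
MAS5 signals of the 7 genes that fell at both times, by diet and time, on linear axes from 0. Each point is 1 array, and the bars are the mean and SD of 6 arrays. The high-diet mean lies below the normal-diet mean in each panel at both times.

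Both measured lysine enzymes fell at both times. Aass, the bifunctional enzyme that opens lysine breakdown, had 2-week signals of 873, 1001 and 1095 in high-diet kidneys, against 1094, 1265 and 1301 in normal-diet kidneys, meeting at the edge of the ranges, and a difference of -0.31 ± 0.08 (adjusted p = 0.0098). At 8 weeks its signals were 830.4, 914 and 1156 in high-diet kidneys, against 1055, 1128 and 1274 in normal-diet kidneys, with a difference of -0.27 ± 0.08 (adjusted p = 0.025). The 8-week call was lost without normal-diet array 1 or high-diet array 1 or 5 (-0.24 to -0.23). Gcdh, glutaryl-CoA dehydrogenase, acts late in lysine and tryptophan breakdown. At 2 weeks its signals were 1568, 1759 and 1830.0 in high-diet kidneys, against 1991, 2103 and 2372 in normal-diet kidneys, without overlap, and the difference was -0.30 ± 0.06 (adjusted p = 0.0026). At 8 weeks they were 1454, 1691 and 1771 in high-diet kidneys, against 1698, 1928 and 2155 in normal-diet kidneys, overlapping, with a difference of -0.22 ± 0.06 (adjusted p = 0.022). That call was lost without normal-diet array 1 or 5 or high-diet array 1 or 5 (-0.21 to -0.19). From the further pathway list, Aldh7a1, which oxidises aminoadipate semialdehyde, was -0.36 ± 0.07 (adjusted p = 0.0026) at 2 weeks, and Dhtkd1, of the oxoadipate dehydrogenase complex, was -0.38 ± 0.08 (adjusted p = 0.0027) at 8 weeks. Each was called at that time only, with Aldh7a1 at -0.17 at 8 weeks and Dhtkd1 at -0.13 at 2 weeks.

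Of 6 branched-chain genes, 2 fell at 2 weeks (33.3%, against 8.74% of all probe sets called) and 0 were called at 8 weeks. At 8 weeks limma gave 2 with an unadjusted p below 0.05 (33.3%, against 23.7% of all probe sets). Aldh6a1, methylmalonate semialdehyde dehydrogenase of the valine pathway, had 2-week signals of 708, 1534 and 1649 in high-diet kidneys, against 1863, 2015 and 2153 in normal-diet kidneys. High-diet array 2 was far below the others, the groups did not overlap, and the difference was -0.58 ± 0.14 (adjusted p = 0.0079). Without that array it was -0.40 (adjusted p = 0.0055). Its other probe set gave -0.19 (adjusted p = 0.21). Hibadh, the dehydrogenase that precedes it in valine breakdown, had signals of 1585, 1632 and 1942 in high-diet kidneys, against 1826, 2041 and 2065 in normal-diet kidneys, and a difference of -0.26 ± 0.06 (adjusted p = 0.012). At 8 weeks Aldh6a1 and Hibadh gave -0.21 ± 0.14 (adjusted p = 0.38) and -0.13 ± 0.06 (adjusted p = 0.21). Hibch, which acts before Hibadh, and Ivd, of leucine breakdown, gave -0.07 ± 0.10 (adjusted p = 0.73) and -0.21 ± 0.09 (adjusted p = 0.18) at 2 weeks and 0.09 ± 0.10 (adjusted p = 0.66) and -0.23 ± 0.09 (adjusted p = 0.13) at 8 weeks. Bckdha and Bckdhb, the subunits of the branched-chain keto acid decarboxylase, gave -0.15 ± 0.11 (adjusted p = 0.45) and 0.21 ± 0.11 (adjusted p = 0.24) at 2 weeks and 0.17 ± 0.11 (adjusted p = 0.38) and -0.24 ± 0.11 (adjusted p = 0.16) at 8 weeks. Echs1, enoyl-CoA hydratase, which is shared with fatty acid oxidation and comes from the further list, was -0.60 ± 0.10 (adjusted p = 0.00035) at 8 weeks. It was not called at 2 weeks.

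In sulfur amino acid and methionine metabolism, Cbs fell at 8 weeks and 0 of 5 genes were called at 2 weeks. At 2 weeks limma gave 1 with an unadjusted p below 0.05 (20%, near the 22.8% of all probe sets). Cbs, cystathionine beta-synthase, which commits homocysteine to cysteine, had 8-week signals of 239, 291 and 323 in high-diet kidneys, against 310.3, 369 and 608 in normal-diet kidneys. Normal-diet array 2 stood well above the rest, and the ranges overlapped at their edge. The difference was -0.44 ± 0.12 (adjusted p = 0.017), lost without high-diet array 1 or 5 (-0.40 and -0.39), and it was -0.31 (adjusted p = 0.037) without normal-diet array 2. At 2 weeks it was -0.17 ± 0.12 (adjusted p = 0.41). Bhmt, which remethylates homocysteine with betaine, was just outside the threshold at 2 weeks, at -0.48 ± 0.16 (adjusted p = 0.058), and gave -0.18 ± 0.16 (adjusted p = 0.55) at 8 weeks. Cth, which splits cystathionine to cysteine, gave -0.03 ± 0.10 (adjusted p = 0.88) and -0.18 ± 0.10 (adjusted p = 0.25). Mat2a, which makes S-adenosylmethionine, gave 0.12 ± 0.10 (adjusted p = 0.51) and 0.03 ± 0.10 (adjusted p = 0.88), and Csad, of taurine synthesis, gave 0.17 ± 0.10 (adjusted p = 0.3) and -0.07 ± 0.10 (adjusted p = 0.72).

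**Figure D4:**
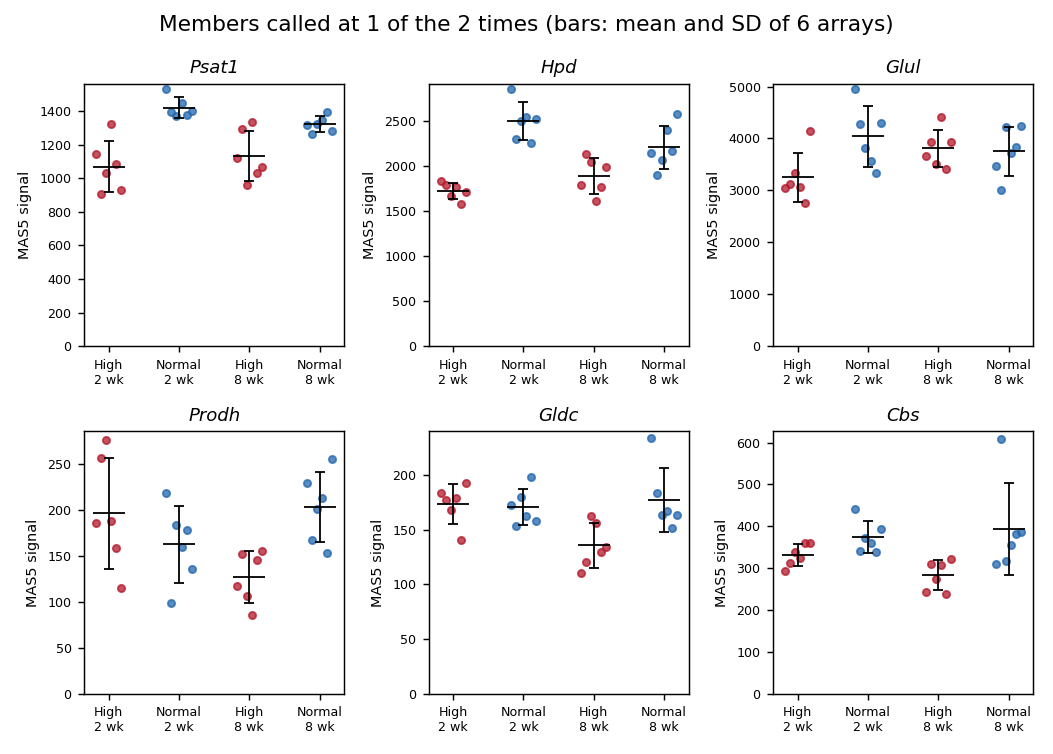
MAS5 signals of 6 genes called at 1 of the 2 times, by diet and time, on linear axes from 0. Psat1, Hpd and Glul (top row) fell at 2 weeks, and Prodh, Gldc and Cbs (bottom row) fell at 8 weeks; each point is 1 array, and the bars are the mean and SD of 6 arrays.

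Which genes were called at 1 time and not at the other is no test of a difference between times. For that test, the change of the diet difference between 2 and 8 weeks, 0 of the 45 genes were called, and 0.382% of all probe sets were called. An unadjusted p below 0.05 was found for 5 of the 45 (11.1%), near the 11.6% of all probe sets. Between 8 and 2 weeks in the high-diet groups, 1 of the 45 was called, lower, against 3.53% of all probe sets, 2.22% higher and 1.3% lower. An unadjusted p below 0.05 was found for 13 (28.9%), against 17.0% of all probe sets. That gene was Bckdhb, with signals of 443, 589 and 729.9 at 8 weeks, against 699, 809.7 and 877 at 2 weeks, and a difference of -0.44 ± 0.11 (adjusted p = 0.015). From the further list, Echs1 and Hoga1, an aldolase of hydroxyproline breakdown, also fell between these times, with differences of -0.63 ± 0.10 (adjusted p = 0.00065) and -0.31 ± 0.08 (adjusted p = 0.018). The Hoga1 call was lost without 2-week high-diet array 4 or 8-week high-diet array 1 or 5 (-0.28 to -0.27), with the spike-in level as a covariate (-0.28, adjusted p = 0.076), with only the groups compared (-0.31, adjusted p = 0.11), or with the mean of its probe sets (-0.22, adjusted p = 0.13). On the normal diet 0 of the 45 were called between 8 and 2 weeks, against 0.0392% of all probe sets (0.0294% higher), and 8 had an unadjusted p below 0.05 (17.8%, against 8.51%). Hoga1 was at -0.21 between these times on the normal diet and was not called. Between the diets Hoga1 was called lower at both times, with differences of -0.23 at 2 weeks and -0.33 at 8 weeks. The 2-week diet call of Hoga1 was lost in 17 of the 24 fits that left out 1 array. The Bckdhb difference on the normal diet was 0.01 ± 0.11 (adjusted p = 0.996). Its call in the high-diet groups was lost with the spike-in level (-0.41, adjusted p = 0.067) or the fat index (-0.40, adjusted p = 0.056) as a covariate.

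Technical and tissue measures that moved with diet were entered as covariates, 1 at a time. With the GAPDH ratio, 7 of the 14 members called at 2 weeks passed: Ass1, Psat1, Hpd, Ddc, Acmsd, Gcdh and Hibadh. With a fat index made from the adipocyte genes Fabp4, Cfd and Car3, 5 passed: Ass1, Hpd, Ddc, Kmo and Acmsd. The index was -1.24 to -0.389 in high-diet kidneys, against -0.531 to 1.92 in normal-diet kidneys at 2 weeks (mean of standardised log2 signals, exact permutation p = 0.0087, adjusted p = 0.035). With the spike-in level, the mean centred log2 signal of 18 added control probe sets, 8 of the 14 passed at 2 weeks: Ass1, Psat1, Hpd, Ddc, Kmo, Acmsd, Aass and Gcdh. In the same fit 3 of the 10 members called at 8 weeks passed: Ass1, Ddc and Gcdh. The spike-in level was -0.433 to 0.0684 in high-diet kidneys, against 0.0827 to 0.235 in normal-diet kidneys at 2 weeks (exact permutation p = 0.0022, adjusted p = 0.017). It was 0.00742 to 0.188 in high-diet kidneys, against -0.443 to 0.26 in normal-diet kidneys at 8 weeks (exact permutation p = 0.048, adjusted p = 0.095). None of the members turned its sign in these fits where it had been called.

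For each gene that fell at both times, the member most like it among replicate animals was found by correlation with the group means removed. Over the 24 arrays Ddc was most like Acmsd (Pearson's r = 0.86, Spearman's rho = 0.79), and r was 0.75 without the 2 arrays farthest from the Ddc median. Ass1 was most like Hpd (r = 0.67), Phgdh most like Acmsd (0.63), Kmo most like Asl (0.65), Aass most like Ass1 (0.62) and Gcdh most like Hibadh (0.66). Each pair was picked as the highest of 44, so no p is given, and the arrays share their scaling. Against the mean of the proximal tubule markers, the median r over the 45 genes was 0.36, highest for Gcdh and Hibadh (0.82 each) and lowest for Asns (-0.26).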

How the data were processed

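Kidney RNA of 24 rats was measured on 1 Affymetrix array per animal, 6 replicate animals in each of 4 groups, per the labels. The deposited table holds an intensity for each of 15923 probe sets, which are MAS5 signals per the submitters' processing notes; the MAS5 version and the scaling target are not given in the sources used here. The authors' values gave trimmed means (2% left out at each end) of 150.034 to 150.042, so the arrays were not scaled again. No batch is named in the labels, and 27 values were 0.

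Here 7.2 (0.1 times the median of the array medians, 72) was added and log2 taken. Kept were 10208 probe sets above their array's 40th percentile (signals of 44.48 to 54.5) in at least 6 arrays, after 57 control probe sets were left out. limma 3.58.1 in R 4.3.3 fitted 1 mean per group with trended empirical Bayes, and 5 comparisons were tested with Benjamini-Hochberg adjustment within each. With 6 arrays a group, their number limits the precision. Array measures and marker sums were compared by exact permutation tests over arrays, adjusted over all array measures or all marker sums. Symbols came from GEO's platform annotation, in which 12783 probe sets have 1 gene symbol, 312 several and 2771 none; none of the symbols changed in RefSeq, and 35 gene IDs had no match there. Of the 45 genes, 36 had 1 probe set, 8 had 2 and 1 had 3, and the tested one with the highest mean log2 signal stands for the gene. The array gives no coordinates here.

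All members are accounted for. Further pathway genes are named by rule: up to 2 called in each direction and comparison, smallest p first, with exceptions marked. The members, the further pathway list, the marker lists and the motifs were chosen with earlier results of these data known. A planned comparison of protein sequences was not run. The fit was tested on simulated data of 10208 probe sets with 200 changed: it recovered 23.8% of changes of 0.3 (log2), 65.4% of 0.5 and 96.6% of 1 at 2 weeks, and 29.8%, 65.3% and 95.8% at 8 weeks, with 4.65% and 4.35% of calls false. The simulated noise was independent between probe sets, whereas genes here share deviations between arrays. These rates therefore need not hold for the real arrays. Deviations of same-numbered arrays of different groups correlated weakly (24 pairs, correlations of -0.10 to 0.16, 5 over 0.1). These correlations cannot show what the replicate numbers stand for, and the main fit did not pair animals. Alternatives were other pseudocounts, normalizations, filters, variance settings, array weights, a replicate block, covariates, probe set summaries and arrays left out.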

Additional observations from a re-analysis of the deposited data

Results flagged for a closer look

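In 5 of 72 groups examined (18 genes in 4 groups of 6 arrays), 1 array lay apart from the others by Dixon's ratio, the gap to the nearest array over the group's whole range on the log2 scale; chance flags about 1 in 20 groups. High salt and fat array 2 at 2 weeks was the lowest for Acmsd (326.6, nearest 509.6, ratio 0.7174). The same array was the lowest for Aldh6a1, at 708.2 against 1316.4 for the nearest (ratio 0.7328). For Hibadh, high salt and fat array 4 at 2 weeks was the highest (1942.1, nearest 1661.3, ratio 0.7687). In the normal-diet group at 8 weeks, array 6 was the lowest for Gatm (1296.3, nearest 1534.6, ratio 0.6515). Array 2 of that group, 1 of the 2 with raised dim signals, was the highest for Cbs (608.2, nearest 387.3, ratio 0.6719). Without the array in question, Acmsd, Aldh6a1 and Hibadh remained called at 2 weeks and Cbs at 8 weeks.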

How the results depend on the processing

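The 14 members lower at 2 weeks were 12 to 16 when 1 array was left out, 7 with the GAPDH ratio and 5 with the fat index as a covariate, and 1 member (Mat2a) was called higher when the spike-in level was the covariate. The 10 lower at 8 weeks were 3 to 13 when 1 array was left out, with 3 without high salt and fat array 1 and 5 without array 5, 5 with only the 8-week groups fitted and 3 with the spike-in level. Without 8-week normal-diet arrays 1 and 2, 8 members were called at 8 weeks, 6 of them among the 10. Lost were Prodh (-0.67, adjusted p = 0.063), Gldc (-0.25, adjusted p = 0.16), Aass (-0.25, adjusted p = 0.078) and Acmsd (-0.55, adjusted p = 0.0502), and gained were Hpd and Kynu. With only the 8-week groups fitted, Aass, Acmsd, Gldc, Gcdh and Cbs were lost. Between 8 and 2 weeks in the high-diet groups, the 1 lower was 1 to 4 with 1 array left out, 5 with array weights, and 2 with median centring, the stricter filter, the GAPDH ratio, the fat index or 8-week normal-diet arrays 1 and 2 left out; members called higher were 0 to 1, the 1 (Dao) appearing without 8-week normal-diet array 5. With array weights 1 member (Prodh) was called for the change between times. The replicate block gave 14 lower at 2 weeks and 12 at 8 weeks. Median differences over members were -0.19 to -0.15 at 2 weeks and -0.23 to -0.17 at 8 weeks with 1 array left out. Over all named genes and called comparisons, leaving out 1 array kept the call in 945 fits and lost it in 87; other settings kept it in 596 and lost it in 92, and 0 reversed. Over all probe sets, 464 higher and 428 lower at 2 weeks became 182 and 146 with the GAPDH ratio, 235 and 247 with the spike-in level, and 123 and 109 with the fat index. At 8 weeks, 575 and 358 became 302 and 195 with the spike-in level and 333 and 209 without normal-diet arrays 1 and 2. Apart from fits with fewer samples, the cause was not tested. Signals are MAS5 summaries, for which background per probe set was not analysed here.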
